A study of Mus musculus with 6 samples.

Results

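The genes described here are the 85 genes of the single-cell table whose symbols mark them as cytosolic ribosomal protein genes or close relatives, out of 19449 genes in all. They were taken by symbol (Rps or Rpl followed by a digit, Rpsa, and the stalk genes Rplp0 to Rplp2), without the 10 Rps6k kinases and without the 4 symbols that carry the suffix -ps. Of the 85, 77 are the canonical genes, 31 for the small and 46 for the large subunit, 3 of the latter encoding the stalk. The other 8 are 6 paralogs (Rpl3l, Rpl7l1, Rpl22l1, Rpl36al, Rpl39l and Rps27l), the retrogene Rps27rt, and Rps19bp1, which encodes a binding partner of Rps19 and no ribosomal protein.

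A ribosome is built from ribosomal RNA and a near-fixed set of proteins, of which the Rps proteins belong to the small subunit, which decodes the message, and the Rpl proteins to the large subunit, which joins amino acids. Most of these genes are transcribed in every cell, and their messages start with a terminal oligopyrimidine (TOP) tract, through which the mTOR pathway sets how strongly they are translated. Ribosomal protein messages are known to take a large share of the messages of resting lymphocytes, and mature neutrophils are known as cells with little RNA and little ribosome production.

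The study transferred Th17-polarised CD4+ T cells reactive to the myelin peptide MOG35-55 into naive C57BL/6 mice, which gives experimental autoimmune encephalomyelitis (EAE), and compared young recipients (8 to 12 weeks) with middle-aged recipients (40 to 44 weeks). CD45+ cells of the spinal cord were sequenced at day 6 and at day 10 posttransfer, with 1 library for each age and day and the cords of 4 mice pooled in each. All 4 groups received the transfer, so none is an untreated control. Pools of naive microglia (CD45int CD11b+) of both ages, with no transferred cells, were sequenced in bulk, 1 library each.

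The 4 libraries held 8315 to 10026 cells and 57337626 to 69859331 UMIs, with a median of 4704.5 to 6196 UMIs per cell, and 308 of the 38057 cells carried a barcode sequence that also occurred in another library. The authors' 16 clusters were checked against marker lists. Clusters 0, 3 and 6 were neutrophil-like (in cluster 0 the list ranked highest, but its median log2 level over the other clusters was only 0.23 and none of its markers was among the 10 leading genes), 1 and 5 monocyte- or macrophage-like, 2 T cell-like, 4, 14 and 15 B cell-like (in cluster 14 the neutrophil list came second), 7 dendritic cell-like, 9 NK cell-like and 10 microglia-like. In cluster 8 the microglial list also ranked highest and all 8 of its markers were detected, but none was among the 10 genes with the largest fold and the median depth in the young day 6 library was 0.332 of that library's median, so it is called by its number. The same combined list led in clusters 1 and 5, which are called macrophage-like and monocyte-like below. Of its markers, Arg1 was among the 10 leading genes of cluster 1 and Vcan among those of cluster 5. This split was not tested. Clusters 11, 12 and 13 were left unnamed. In cluster 12 the list of dividing cells led, with the neutrophil list close behind (median log2 levels of 3.97 and 3.86). In cluster 13 the T cell list led, also with the neutrophil list close behind (1.37 and 1.32). Clusters 12 and 15 held only 4 to 9 cells in each day 6 library. The authors had removed cells with 50% or more ribosomal reads, which caps the readout used here, although by the present gene list 20, 13, 31 and 13 cells of the 4 libraries lay above that level, the highest at 53.7%.

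Of the 85 members, 72 averaged over 1000 CPM (UMIs of a gene per 1e+06 UMIs), and the highest held 2.62% of the family's UMIs. CPM counts 3′-end molecules, so values can be set beside each other without a correction for length. Rps24, a small subunit protein (chr14:24487125-24496959, plus strand, mm10), was the highest, at 4398 CPM in the young day 6, 3586 in the middle-aged day 6, 5456 in the young day 10 and 6048 in the middle-aged day 10 library. Rpl13, of the large subunit, followed with 3950, 3247, 5169 and 5639 CPM in the same order, and Rpl23 with 3370, 3102, 4463 and 5018 CPM. Rps9, Rplp1, Rpl32, Rps16, Rps29 and Rpl19 were also among the 10 highest, with means of 3327 to 3677 CPM. The relatives were spread far more widely, from 787 CPM for Rpl36al, 408 for Rpl22l1 and 277 for Rps27l to 63.6 for Rps27rt, 54.6 for Rpl7l1, 29.8 for Rps19bp1, 3.46 for Rpl3l and 1.46 for Rpl39l.

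The starts of some member genes are shown because the TOP tract lies there. RefSeq starts on GRCm38.p6 were available for 65 of the 85 members. Each line gives 10 bases before the annotated start and the 20 bases from it on, 5′ to 3′, and capitals mark the longest run of a C followed by at least 4 further C or T. Rps9, Rps27 and Rps27rt stood above the family in neutrophil-like clusters, as described further on, and Rpl12, Rps18 and Rpsa below it. Rps24, the most abundant member, has a second annotated start that is not shown.
Rps9, chr7:3704031-3704060, plus strand: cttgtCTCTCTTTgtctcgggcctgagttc
Rps27, chr3:90213629-90213658, minus strand: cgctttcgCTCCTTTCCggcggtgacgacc
Rps27rt, chr9:114982720-114982749, minus strand: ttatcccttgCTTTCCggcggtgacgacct
Rps24, chr14:24490668-24490697, plus strand: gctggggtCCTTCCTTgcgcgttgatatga
Rpl12, chr2:32961702-32961731, plus strand: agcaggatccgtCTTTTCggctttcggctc
Rps18, chr17:33955646-33955675, minus strand: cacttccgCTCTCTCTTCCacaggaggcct
Rpsa, chr9:120127756-120127785, plus strand: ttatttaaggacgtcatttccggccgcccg
Such a run was present in the window of 46 of 77 annotated member starts, or 59.7%, against 35.8% of all 32851 starts in the same table (sense strand only). It was found in genes that stood above the family and in genes that stood below it, and Rpsa had none in this window.

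Several relatives are near copies, which limits what reads can tell. Over the coding sequence (GENCODE, GRCm38), Rps27rt was 100% identical to Rps27, so a read inside it fits both genes. Rpl36al was 87.9% identical to Rpl36a, Rpl39l 85.3% to Rpl39, Rps27l 76.1% to Rps27, Rpl3l 73.3% to Rpl3, Rpl22l1 66.9% to Rpl22 and Rpl7l1 53.0% to Rpl7. The coding sequences below run from start to stop codon with introns removed, and capitals mark the bases of the paralog that differ from the gene above it.
Rps27, and Rps27rt in the same 255 bases: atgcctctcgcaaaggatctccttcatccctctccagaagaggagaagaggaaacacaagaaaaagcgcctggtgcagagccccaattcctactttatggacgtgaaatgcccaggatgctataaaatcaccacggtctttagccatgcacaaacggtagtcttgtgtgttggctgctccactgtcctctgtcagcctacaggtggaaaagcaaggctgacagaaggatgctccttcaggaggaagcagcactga
Rps27l: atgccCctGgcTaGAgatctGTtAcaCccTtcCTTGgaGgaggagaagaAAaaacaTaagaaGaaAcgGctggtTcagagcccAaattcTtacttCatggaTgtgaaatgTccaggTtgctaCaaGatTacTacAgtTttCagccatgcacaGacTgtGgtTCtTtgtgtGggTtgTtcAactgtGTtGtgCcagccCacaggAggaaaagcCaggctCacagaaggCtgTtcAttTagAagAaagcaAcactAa
Rpl39: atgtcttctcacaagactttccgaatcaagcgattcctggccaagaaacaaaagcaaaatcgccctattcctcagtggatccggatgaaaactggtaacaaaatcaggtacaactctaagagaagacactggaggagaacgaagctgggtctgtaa
Rpl39l: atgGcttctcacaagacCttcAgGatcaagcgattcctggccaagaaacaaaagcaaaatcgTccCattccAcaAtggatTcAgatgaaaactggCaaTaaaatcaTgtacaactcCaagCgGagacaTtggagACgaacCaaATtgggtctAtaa
The 61 differing bases of Rps27l and the 23 of Rpl39l lie from near the start to near the end of each sequence. Rpl39l also has a long stretch without a difference, in which a read fits both genes.

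The share of UMIs that came from the 85 genes separated cell types by more than an order of magnitude. The clusters were made from the expression of these same cells, so their order is given as a description. T cell-like cluster 2 and B cell-like clusters 4 and 15 stood highest, with 32.9% ± 3.37, 32.8% ± 2.87 and 30.2% ± 3.66 of UMIs (mean ± SD, n = 4 libraries), and unnamed cluster 11 followed at 28.6% ± 3.77. Cluster 14, in which the B cell list led and the neutrophil list came second, was at only 16.9% ± 1.54. The neutrophil-like clusters stood lowest, at 3.08% ± 0.576 in cluster 3, 3.22% ± 1.13 in cluster 6 and 4.75% ± 2.57 in cluster 0. Between them lay microglia-like cluster 10 at 14.6% ± 2.33, macrophage-like cluster 1 at 15.6% ± 2.56 and monocyte-like cluster 5 at 20.1% ± 2.39, dendritic cell-like cluster 7 at 21.3% ± 3.29, cluster 8 at 22.0% ± 2.19 and NK cell-like cluster 9 at 26.8% ± 1.42. Unnamed cluster 12, in which the neutrophil list came second, was the nearest above the neutrophil-like clusters, at 7.76% ± 1.48. Clusters 2 and 4 differed by less than their spread over libraries, as did clusters 5, 7 and 8.

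**Figure D1:**
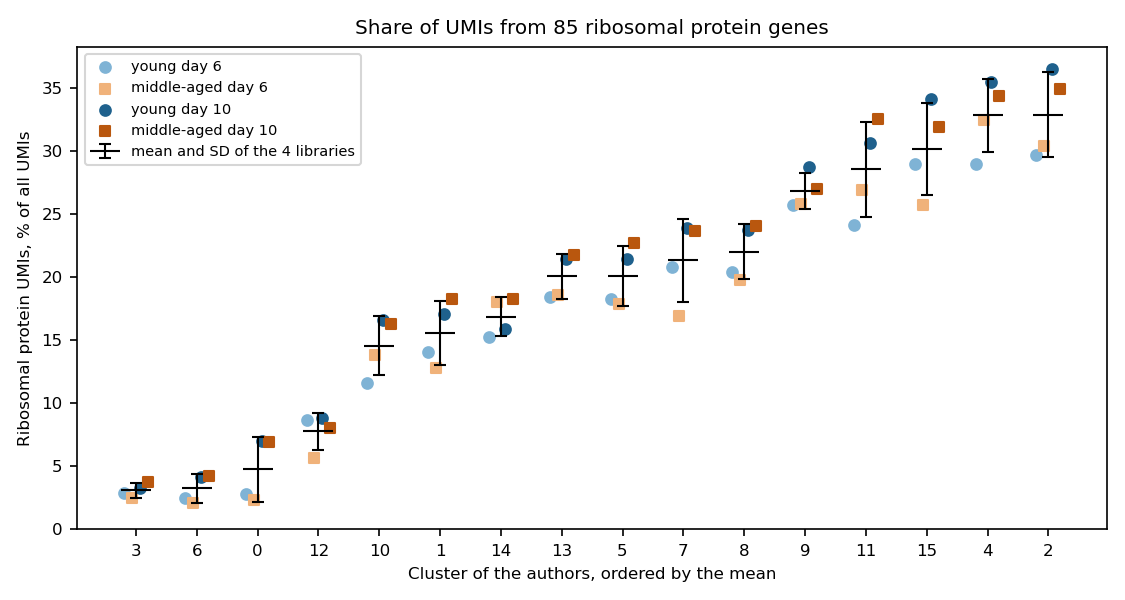
Share of UMIs from the 85 genes (vertical axis, percent) in each of the 16 clusters (horizontal axis, ordered by the mean) for the 4 libraries, with the mean and SD over libraries in black. The 12 values of neutrophil-like clusters 0, 3 and 6 lie between 2.06% and 7.001%, and the 12 values of clusters 2, 4 and 15 between 25.7% and 36.5%.

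The gap between neutrophil-like and lymphoid clusters was seen in every library. In cluster 3 the share was 2.83% in the young day 6, 2.44% in the middle-aged day 6, 3.28% in the young day 10 and 3.77% in the middle-aged day 10 library, and in T cell cluster 2 it was 29.7%, 30.4%, 36.5% and 34.9% in the same order. All values of cluster 2 lay above all of cluster 3. The share moved with the list of 18 translation factors and other genes with a TOP start, which took 0.490% to 1.49% of UMIs in clusters 0, 3 and 6 and 3.11% to 4.33% in clusters 2, 4 and 15. Across the 16 cluster means, which share libraries and a common total, Spearman's rho of the share was 0.97 with that list, 0.77 with 23 ribosome biogenesis genes, 0.70 with 78 mitochondrial ribosomal protein genes and 0.94 with the mitochondrial share, but -0.03 with the median depth.

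The small subunit carried relatively more of the family in neutrophil-like clusters. The ratio of small to large subunit UMIs over the 77 canonical genes was 0.858 to 1.05 there and 0.791 to 0.946 in the other 13 clusters, so that the ranges overlapped. In cluster 3 it was 1.00, 1.05, 0.986 and 0.940 in the young day 6, middle-aged day 6, young day 10 and middle-aged day 10 libraries, and in cluster 10 it was 0.815, 0.806, 0.791 and 0.801. The 4 values of cluster 3 lay above the 4 of cluster 10. Cluster 12, in which the neutrophil list came second, gave the highest ratios of the other 13, 0.914 to 0.946. Without cluster 12 the others reached 0.908.

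Most canonical genes kept their place within the family across clusters. A member's departure is its log2(CPM + 1) minus the median of the 77 genes in the same cluster and library, centred on the member's mean over clusters of that library. The SD of this departure over the 16 clusters had a median of 0.26 over the 77 genes and was under 0.5 in 69 of them. The 8 with a wider spread were Rps9, Rpl12, Rpl10a, Rps27, Rpl3, Rps27a, Rps18 and Rpsa. Between the 3 neutrophil-like clusters and the other 13, 4 canonical genes stood at least 1 log2 unit higher (Rps9, Rps27, Rps27a and Rpl37) and 6 at least 1 unit lower (Rpl10a, Rpl12, Rpl3, Rps18, Rpsa and Rpl36a). Rps18, Rpsa, Rpl37 and Rpl36a were singled out after their values were seen. The difference had the same sign in all 4 libraries for 60 of the 77 genes. The other 13 include clusters 12, 13 and 14, in which the neutrophil list came second.

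**Figure D2:**
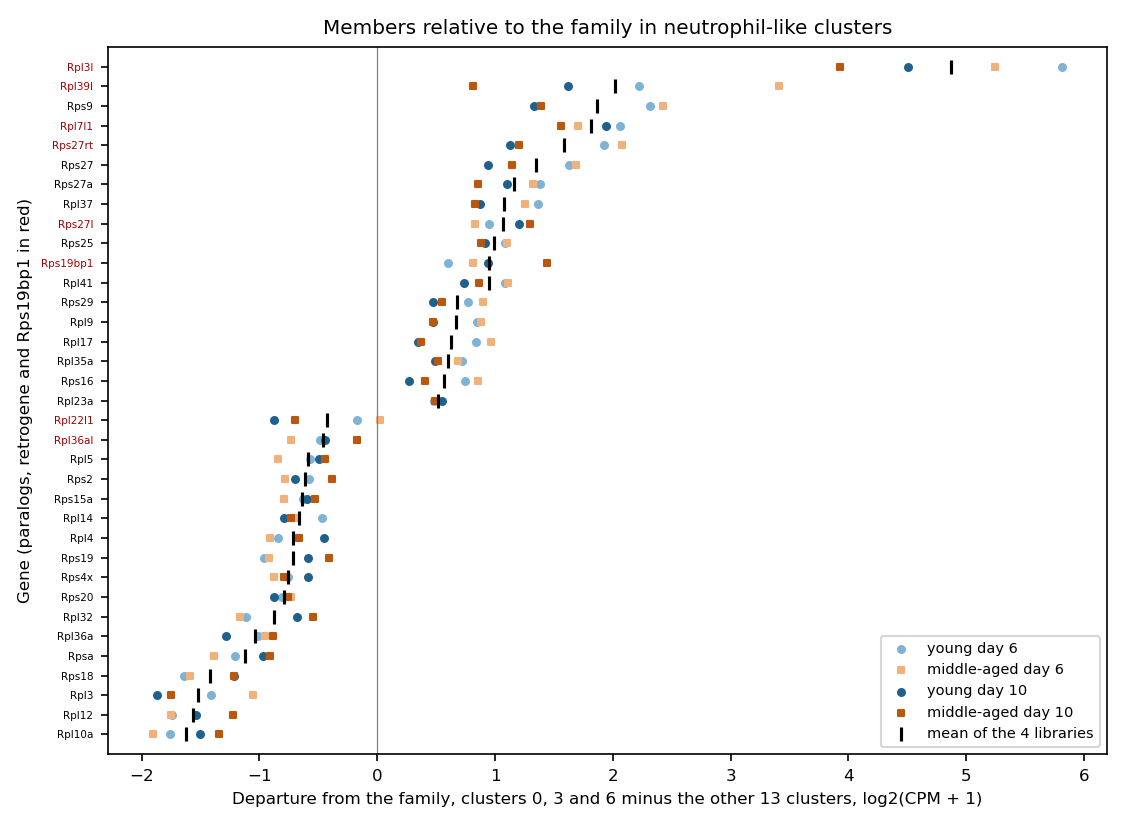
Departure from the family in neutrophil-like clusters 0, 3 and 6 minus the other 13 clusters, on the log2(CPM + 1) scale (horizontal axis), for the canonical genes whose mean lies 0.5 or more from 0 and for the 8 relatives (vertical axis, with the relatives in red), with 4 library points and their mean. Rpl3l has the highest mean, 4.87, and Rpl10a the lowest, -1.63.

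Rps9, a small subunit protein at chr7:3703993-3706897 (plus strand), stood highest above the family among the canonical genes in neutrophil-like clusters. Its level in cluster 3 was 2850 CPM in the young day 6, 2663 in the middle-aged day 6, 2070 in the young day 10 and 2624 in the middle-aged day 10 library. In T cell cluster 2 it was 3972, 3948, 4970 and 4901 CPM. Its departure was 2.18 ± 0.40 in cluster 3 and -0.76 ± 0.18 in cluster 2 (mean ± SD, n = 4 libraries). In macrophage-like cluster 1 it was near the family, with a departure of 0.05 ± 0.08.

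Rpl12 and Rpl3, both of the large subunit, showed the opposite pattern. Rpl12 was at 70.7, 52.3, 86.7 and 164.0 CPM in cluster 3 and at 4487, 4574, 6067 and 5933 CPM in cluster 2, in the order young day 6, middle-aged day 6, young day 10, middle-aged day 10. Its departure was -1.46 ± 0.26 in cluster 3, 0.72 ± 0.09 in cluster 2 and -0.28 ± 0.16 in cluster 1. Rpl3, among the proteins nearest to the peptidyl transferase centre, was at 48.9, 58.6, 65.3 and 82.9 CPM in cluster 3, at 2566, 2573, 3841 and 3472 CPM in cluster 2 and at 1158, 1306, 1678 and 1530 CPM in cluster 10. It stood below the family in cluster 3, by a departure of -1.41 ± 0.30, and above it in microglia-like cluster 10, by 0.55 ± 0.08.

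Rpl10a, also of the large subunit, was at 38.0, 30.1, 62.6 and 100.9 CPM in cluster 3 and at 1251, 1434, 1863 and 1784 CPM in cluster 10. Its departure was -1.55 ± 0.32 in cluster 3, and in microglia-like cluster 10 and cluster 8 it was 0.83 ± 0.09 and 0.63 ± 0.09. Rps27a, which encodes ubiquitin fused to a small subunit protein, stood above the family in clusters 3 and 6, at 1.48 ± 0.23 and 1.29 ± 0.26, but not in cluster 0, at 0.07 ± 0.25.

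Rps27 and its retrogene copy Rps27rt moved together. Rps27, a small subunit protein (chr3:90212725-90213615 from stop to start codon, minus strand), departed by 1.32 ± 0.35 in cluster 3, 0.39 ± 0.19 in B cell-like cluster 4 and -0.81 ± 0.17 in cluster 10, and Rps27rt (chr9:114982366-114982739, minus strand) by 0.35 ± 0.31 in cluster 4 and -0.71 ± 0.18 in cluster 10. The level of Rps27rt was 1.73% to 3.08% of that of Rps27 in all 16 clusters, with a median of 2.50%. Given the identical coding sequences, the files cannot tell transcripts of the copy from reads of Rps27 placed there.

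Rpl3l, a paralog of Rpl3 best known from heart and skeletal muscle (chr17:24727820-24736143, plus strand), had the widest spread of departure over clusters (SD 2.29). Its mean of 3.46 CPM was below the 10 CPM set for ranking, so its departure also rests on the pseudocount where it has few UMIs. Only 883 UMIs were counted in all, of which macrophage-like cluster 1 held 420 and neutrophil-like clusters 0, 3 and 6 held 312, out of 95696602 and 35327291 UMIs of all genes. In cluster 0 it was at 10.4 CPM in the young day 6, 7.97 in the middle-aged day 6, 12.9 in the young day 10 and 8.18 in the middle-aged day 10 library. In macrophage-like cluster 1 it was at 3.32, 4.84, 5.96 and 3.43 CPM, below cluster 0 in each library. T cell cluster 2 held 1 UMI of Rpl3l among 43254209. Pooled over libraries, the level was 8.83 CPM in clusters 0, 3 and 6 (exact Poisson interval 7.88 to 9.87, counting error only) and 0.0231 CPM in cluster 2 (0.000585 to 0.129). In all clusters other than 0, 3 and 6 it was 2.61 CPM (2.40 to 2.84). The departure is larger than this difference in level, as the family itself was low in clusters 0, 3 and 6. Unnamed cluster 13, in which the neutrophil list came second, had a mean of 5.52 CPM. Rpl3 was lowest in clusters 0, 3 and 6, where Rpl3l as a group was highest.

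Rpl39l, a paralog of Rpl39 best known from testis (chr16:10170226-10174911, plus strand), was highest in cluster 8 and microglia-like cluster 10. It was at 10.8 CPM in the young day 6, 6.15 in the middle-aged day 6, 7.98 in the young day 10 and 10.8 in the middle-aged day 10 library in cluster 8, and at 7.56, 5.88, 7.40 and 8.96 CPM in cluster 10. In macrophage-like cluster 1 it was at 0.583, 0.457, 1.19 and 1.59 CPM, and each value of clusters 8 and 10 lay above all of these. Pooled, 157 UMIs gave 8.04 CPM in clusters 8 and 10 (6.83 to 9.40) and 222 gave 0.947 CPM in the other 14 clusters (0.827 to 1.08). Cluster 13, which was unnamed, came nearest with a mean of 4.17 CPM from 12 UMIs. In clusters 0, 3 and 6 the level was 0.283 CPM from 10 UMIs, so the positive departure of Rpl39l plotted there rests on the pseudocount.

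Rps27l (chr9:66946086-66949516, plus strand), a paralog known as a target of p53, was highest in dendritic cell-like cluster 7, at 461, 1195, 704 and 787 CPM in the young day 6, middle-aged day 6, young day 10 and middle-aged day 10 libraries. It was lowest relative to the family in B cell-like cluster 4, where it was at 127, 129, 117 and 126 CPM and departed by -1.79 ± 0.19. In neutrophil-like cluster 0 it was at 49.0 and 50.7 CPM in the day 6 libraries and at 306 and 319 CPM in the day 10 libraries. Rpl22l1, a paralog of Rpl22, was high in lymphocytes, at 863, 843, 925 and 862 CPM in cluster 2, and low in cluster 0, at 38.3, 39.2, 60.8 and 57.8 CPM.

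**Figure D3:**
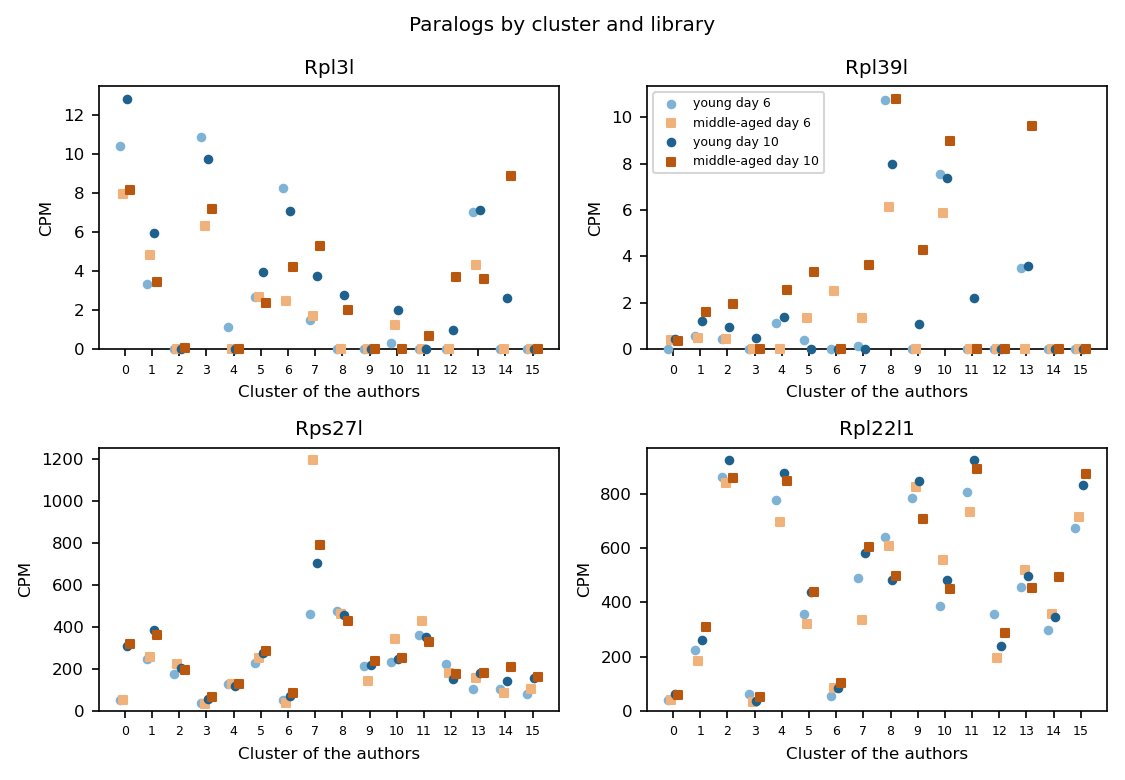
Levels of 4 paralogs (vertical axes, CPM, each on its own linear scale from 0) in each of the 16 clusters (horizontal axes) for the 4 libraries. Rpl3l is above 7 CPM in all 4 libraries of cluster 0 and at or near 0 in cluster 2, and Rpl39l is above 5 CPM in all 4 libraries of clusters 8 and 10.

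Rpl36al was the relative closest to the family in level, with a mean of 1092 CPM in cluster 2 and 819 in cluster 1, and lowest in clusters 0, 3 and 6, with means of 44.8 to 147 CPM. Rpl7l1, known for ribosome assembly, ranged over clusters from 17.7 to 82.6 CPM and Rps19bp1 from 3.81 to 43.1 CPM.

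The share was higher at day 10 than at day 6 in all 16 clusters, at both ages. The median log2 change of the share over clusters was 0.23 in young and 0.29 in middle-aged libraries, and the counting interval lay above 0 in 15 of 16 clusters at each age. Each day was sequenced as separate libraries, so the day and the library preparation cannot be told apart. Over whole libraries the share was 16.8% in the young day 6, 14.4% in the middle-aged day 6, 20.8% in the young day 10 and 22.6% in the middle-aged day 10 library. With the same mean cluster weights in each library it was 16.7%, 16.2%, 20.7% and 21.0%. At a fixed mix of clusters both day 10 libraries thus stayed above both day 6 libraries, and the libraries of 1 day lay closer together than without it.

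The day ratio was largest in neutrophil-like cluster 0, with log2 values of 1.35 in young and 1.59 in middle-aged libraries. The share there was 2.75% in the young day 6 and 2.31% in the middle-aged day 6 library, and 7.001% and 6.95% at day 10. All 77 canonical genes were higher at day 10 at both ages, beside 72.4% of the 7546 genes with at least 100 UMIs in that cluster. The summed level of the T cell list went from 22.1 and 24.5 CPM to 61.2 and 67.7 CPM there, with 8 of 8 markers higher at both ages, and that of the microglial list from 80.3 and 59.2 CPM to 231 and 221 CPM, with 5 of 8 higher. All markers of both lists were detected, and their part in the result was not tested.

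For clusters 2, 8 and 10 the day and age effects were fitted over all genes with edgeR's quasi-likelihood test on the summed counts of the 4 libraries, with day and age in the model. This leaves 1 residual degree of freedom, which holds any age difference that changes with the day. Most of the spread is borrowed from other genes (prior degrees of freedom 17.0, 18.7 and 11.9 in clusters 2, 8 and 10). The p-values therefore do not measure the spread between replicate pools. On TMM scaling the median change of all tested genes was within 0.01 of 0 for day, whereas per total UMIs cluster 2 had -0.18 in young and -0.04 in middle-aged cells, cluster 8 had -0.31 and -0.27, and cluster 10 had -0.18 and -0.11.

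In cluster 8, 63 of the 84 tested members rose from day 6 to day 10 and none fell (adjusted p under 0.05, edgeR), beside 13.4% of all 8371 genes tested. DESeq2 called 1 of them. The 77 canonical genes all had a positive fitted change, with a median of 0.51 (log2) and a range of 0.08 to 0.85. Rpl23 was at 3341 CPM in the young day 6, 3671 in the middle-aged day 6, 5138 in the young day 10 and 5306 in the middle-aged day 10 library, and rose by 0.85 ± 0.11 (log2, SE; adjusted p = 2.54e-05, edgeR, with 3.16e-11 to 0.0419 over the other processings, the highest by DESeq2). Rps24 was at 4414, 4436, 6068 and 6207 CPM and rose by 0.75 ± 0.11 (adjusted p = 5.75e-05, edgeR, with 1.19e-09 to 0.0971 over the other processings). In both genes the day 10 libraries lay above the day 6 libraries without overlap.

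Of the stalk proteins, which recruit elongation factors, Rplp0 rose by 0.56 ± 0.12 and Rplp2 by 0.44 ± 0.13 (log2, SE; adjusted p = 0.00293 and 0.0242, edgeR). Rplp0 was named after its values were seen. Rplp1 did not pass, at 5772, 5240, 5296 and 5761 CPM with overlapping days and a fitted change of 0.29 ± 0.11 (adjusted p = 0.101, edgeR). Of the relatives, Rps27rt was called and 3 others had negative fitted changes. Rps19bp1 was at 47.6, 52.3, 35.1 and 37.2 CPM, Rpl7l1 at 86.0, 95.3, 73.0 and 63.6 CPM and Rpl22l1 at 644, 610, 484 and 497 CPM. All 3 were lower in both day 10 libraries, but on the fitted scale their changes were -0.19, -0.14 and -0.07 and none passed the test (adjusted p = 0.71, 0.755 and 0.839, edgeR).

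The makeup of cluster 8 also moved with the day. The summed level of the monocyte and macrophage list went from 1227 and 1647 CPM at day 6 to 11366 and 14733 CPM at day 10 (5 of 8 markers higher at both ages, mostly Lyz2), and that of the microglial list from 5860 and 3883 to 2656 and 3204 CPM (8 of 8 lower). The list of dividing cells went from 876 and 1091 to 460 and 377 CPM (6 of 6 lower), and the T cell list from 98.3 and 133 to 243 and 269 CPM (8 of 8 higher). All markers of these lists were detected, and their part in the result was not tested. Without the cells that carried UMIs of T cell, B cell or neutrophil markers (8.43% to 24.0% of cells by library), 54 members passed. Cells with monocyte markers stayed in, so this count does not bear on the monocyte and macrophage list.

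In microglia-like cluster 10, 0 of 84 members passed for day by edgeR (8 at an unadjusted p under 0.05, and 0 adjusted by DESeq2), beside 6.63% of 10562 genes. The share was 11.6% in the young day 6, 13.8% in the middle-aged day 6, 16.6% in the young day 10 and 16.3% in the middle-aged day 10 library, so the days did not overlap. Of the 77 canonical genes, 71 were higher at day 10 at both ages and none was lower at both, beside 21.6% and 47.2% of the 8635 genes with at least 100 UMIs. The fitted median was 0.51 (log2), the same as in cluster 8, but the median SE was 0.32 against 0.13. The count depended on the day 6 libraries: without the middle-aged one 75 members passed, 73 of them higher, and without the young one 20, while 0 passed without either day 10 library. Age was dropped from the model in these fits, and dropping it alone gave 0. The T cell list was at 86.1 and 68.0 CPM at day 6 and at 154 and 106 CPM at day 10 (8 of 8 markers higher at both ages), and 8 of 9 neutrophil markers were higher too, and their part in the result was not tested.

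In T cell cluster 2, 0 of 84 members passed for day by edgeR (27 at an unadjusted p under 0.05, and 0 adjusted by DESeq2), beside 7.22% of 11362 genes. Here 67 of 77 canonical genes were higher at day 10 at both ages and 1 was lower, beside 20.4% and 43.1% of 9771 genes. Without the middle-aged day 6 library, and with age dropped from the model, 22 members passed, and without any of the others 0 or 1, while dropping age alone gave 9. The list of dividing cells went from 79.4 and 85.4 CPM at day 6 to 124 and 115 CPM at day 10 (6 of 6 markers higher at both ages), and that of monocytes and macrophages from 1405 and 1204 to 768 and 678 CPM (4 of 8 lower, 3 higher). Their part in the result was not tested. The filter for UMIs of another lineage removed 56.4%, 55.1%, 49.3% and 37.3% of cells (young and middle-aged day 6, young and middle-aged day 10). Monocyte markers counted for this, among them Ccr2, which was at 129 to 311 CPM in the cluster. Whether the removed cells were of another lineage was not tested. In the cells left, the fitted median of the members tested was 0.23, against 0.36 in all cells, and 5 had an unadjusted p under 0.05 (edgeR). In cluster 8, 65 of 77 canonical genes were higher at day 10 at both ages and 5 lower, beside 17.5% and 58% of 5198 genes.

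Ribosome biogenesis genes, whose products make and modify ribosomal RNA and assemble the subunits, had negative median changes in clusters 8 and 10, but few passed the test. In cluster 10 all 23 were lower at day 10 at both ages, beside 47.2% of genes, and 6 passed, all lower (3 by DESeq2), beside 6.63% of genes called in either direction. Their fitted median was -0.62 (log2). Ncl, which encodes nucleolin, was at 954, 736, 447 and 470 CPM in the young day 6, middle-aged day 6, young day 10 and middle-aged day 10 libraries, with a fitted change of -0.72 ± 0.27 (adjusted p = 0.139, edgeR). Nop56, a core protein of the box C/D particles that modify ribosomal RNA, was at 279, 206, 99.3 and 103.5 CPM and fell by 1.09 ± 0.22 (log2; adjusted p = 0.00981, edgeR). Myc, named after its values were seen, is a transcription factor that drives ribosome production, and it was at 115, 55.4, 25.04 and 27.5 CPM and fell by 1.48 ± 0.25 (log2; adjusted p = 0.00442, edgeR). The day 10 libraries were below the day 6 libraries for all 3. The list of dividing cells was at 475 and 760 CPM at day 6 and at 361 and 295 CPM at day 10 in cluster 10, and its part in the result was not tested.

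In cluster 8, 4 of 22 biogenesis genes passed, all lower (0 by DESeq2), beside 13.4% of genes called in either direction, with a fitted median of -0.61, and Ncl was at 757, 606, 328 and 349 CPM and fell by 0.72 ± 0.17 (log2; adjusted p = 0.00725, edgeR). In T cell cluster 2 none of 23 passed (3 at an unadjusted p under 0.05, and 0 by DESeq2) and the median was -0.14. Translation factors and other genes with a TOP start had positive medians like the family. In cluster 8, 8 of 18 rose (1 by DESeq2), beside the same 13.4%, and none passed in clusters 2 and 10 by edgeR or DESeq2 (8 and 3 at an unadjusted p under 0.05), with medians of 0.47, 0.39 and 0.39 in clusters 8, 2 and 10. Fau, which encodes a small subunit protein that the symbol rule does not take, was at 4768, 5133, 6861 and 6704 CPM in cluster 8 and rose by 0.73 ± 0.11 (log2; adjusted p = 7.12e-05, edgeR). Of the 78 mitochondrial ribosomal protein genes, 1 rose and 2 fell in cluster 8, 2 fell in cluster 10 and none passed in cluster 2 by edgeR (2 at an unadjusted p under 0.05), and DESeq2 called 0 in each. Over all genes 13.4%, 6.63% and 7.22% were called in clusters 8, 10 and 2.

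**Figure D4:**
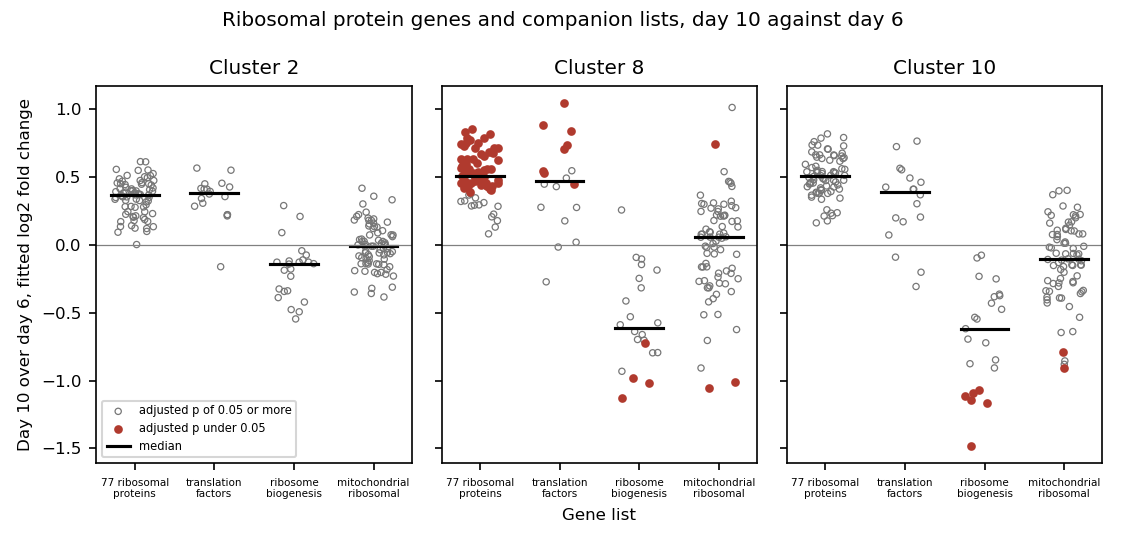
Fitted log2 fold change of day 10 over day 6 (vertical axis) for the 77 canonical genes and 3 companion lists (horizontal axis) in clusters 2, 8 and 10, with genes under an adjusted p of 0.05 filled and the list median as a bar. In clusters 8 and 10 the medians of the canonical genes are both 0.51 and those of the biogenesis genes -0.61 and -0.62.

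Age was the comparison the study was designed for, and no member passed it. In clusters 2, 10 and 8, 0 of 84 members passed for age by edgeR, beside 0.0792%, 0.142% and 0.0956% of all genes tested in these clusters, and none had an unadjusted p under 0.05. DESeq2 and each other processing also gave 0. The fitted medians of the members were -0.02 and 0.13 (log2) in clusters 2 and 10 and within 0.01 of 0 in cluster 8, with median SEs of 0.19, 0.32 and 0.13. In simulated data with the same library sizes, the test recovered 82.8%, 77.6% and 50.5% of genes changed by 1 on the log2 scale in clusters 2, 10 and 8. The simulation used a fixed spread for all genes and no effect of day, so the rates need not hold at the spread of the data. No change below 1 was simulated, so the rates do not cover changes as small as the fitted medians.

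The share at day 6 was higher in middle-aged cells of cluster 10, at 13.8% against 11.6%, a log2 ratio of 0.25 (exact 95% interval 0.24 to 0.26, counting error only). At day 10 the order was turned and the difference small, at 16.3% against 16.6% (-0.03, interval -0.03 to -0.02). Gene by gene, all 77 canonical genes were higher in the middle-aged library at day 6, beside 3929 of 8635 genes. Their median log2 ratio was 0.24 where all genes had -0.04. At day 10, 31 of the 77 were higher, beside 4309 of 8635 genes. The same 31 were therefore higher at both days, and none could be lower at both. Over all genes 20.3% were higher and 24.9% lower at both days, but the members' counts add nothing to those of day 10. At day 6 the biogenesis list differed in the other direction, with a median of -0.37. In the middle-aged library 22 of its 23 genes were lower, beside 4706 of 8635 genes. The neutrophil list was at 4487 CPM in the young and 1284 CPM in the middle-aged day 6 library and the microglial list at 9916 and 6321 CPM. The list of dividing cells went the other way, at 475 and 760 CPM. The median depth was 6931 UMIs over 432 young cells and 10000 UMIs over 216 middle-aged cells. The part of these differences in the result was not tested.

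In T cell cluster 2 the log2 age ratio of the share was 0.04 at day 6 and -0.06 at day 10. In the middle-aged library 56 and 13 of 77 canonical genes were higher at these days, beside 3968 and 6090 of 9771 genes. At both days 9 canonical genes were higher and 17 lower, beside 20.9% and 18% of genes. In cluster 8 the ratio was -0.05 at day 6 and 0.02 at day 10, and both signs turned without cells that carried UMIs of another lineage (0.015 and -0.034). There 17 genes were higher and 33 lower at both days, beside 22% and 27.2%.

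Rps21, Rps28, Rpl38 and Rpl41, which encode some of the smallest ribosomal proteins, recurred among the 5 members with the highest age ratios of 1 sign at both days. A relation to protein size was not tested. In cluster 10 Rps28 was at 1029 CPM in young and 1434 in middle-aged cells at day 6 (log2 ratio 0.48, interval 0.41 to 0.55) and at 1679 and 1848 CPM at day 10 (0.14, 0.09 to 0.19). Rps21 was at 1181 and 1474 CPM at day 6 (0.32, 0.25 to 0.38) and at 1546 and 1793 CPM at day 10 (0.21, 0.16 to 0.27). Rps21 was among the 5 highest in clusters 2, 8 and 10, with ratios of 0.01 and 0.16 in cluster 2 and 0.04 and 0.18 in cluster 8 (day 6 and day 10). The intervals at day 6 in clusters 2 and 8 included 0. Rpl38 had ratios of 0.14 and 0.06 in cluster 2 and 0.43 and 0.08 in cluster 10.

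Rpl29, of the large subunit, was among the 5 lowest in clusters 2 and 8. Its ratios were -0.06 and -0.19 in cluster 2 and -0.25 and -0.09 in cluster 8, but 0.22 and -0.13 in cluster 10. The ratios of Rps27rt were -0.08 and -0.08 in cluster 2 and -0.24 and -0.14 in cluster 8, but all 4 intervals included 0. Rps27 itself had ratios of 0.05 and 0.15 in cluster 8, and the interval at day 6 included 0. None of these genes passed the fitted test.

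**Figure D5:**
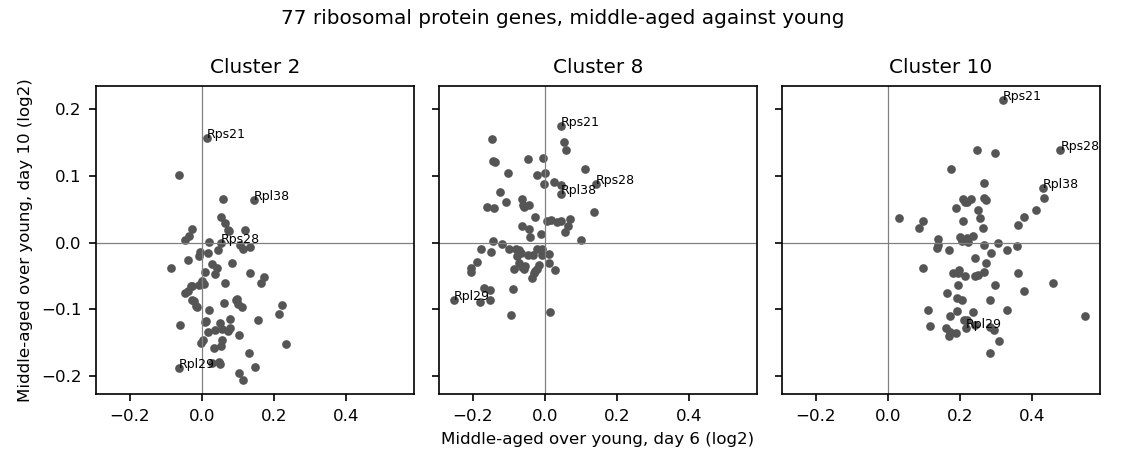
Log2 age ratio (CPM in middle-aged over CPM in young cells) at day 6 (horizontal axis) and at day 10 (vertical axis) for the 77 canonical genes in clusters 2, 8 and 10, 1 point per gene. In cluster 10 all 77 points lie right of 0 at day 6 and 31 lie above 0 at day 10.

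In naive microglia the family took a small share of the bulk reads, 1.05% in the young and 1.00% in the middle-aged library, and all 85 members were matched by symbol. Without replicates no test was possible. Of the 77 canonical genes 67 were lower in the middle-aged library and 10 higher, beside 51.7% of 14821 genes lower, with a median log2 ratio of -0.07 and an all-gene median of -0.01. Rps24 was at 172 and 155 CPM, Rpl13 at 218 and 202 CPM and Rps9 at 280 and 265 CPM in the young and middle-aged library. Rpl39l had 10 and 34 reads (log2 ratio 1.82, exact interval 0.77 to 3.005, counting error only), Rpl24 118 and 56 (-1.02, -1.50 to -0.55) and Rpl3l 7 and 0, for which no ratio is given. Rpl24 was named after its values were seen. Read counts here grow with transcript length, so these levels are not comparable with the UMI levels above.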

How the data were processed

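CD45+ spinal cord cells were captured with 10x chemistry in 4 libraries, 1 per age and day, and sequenced as UMI counts. Per the labels and methods, the authors aligned reads to mm10 with Cell Ranger 3.1.0, deposited raw counts per gene and cell, and kept cells with at least 200 genes, under 10% mitochondrial and under 50% ribosomal reads. Their deposited clusters were used unchanged. How doublets were treated was not examined here beyond leaving out cells with UMIs of another lineage as an alternative. For bulk microglia the authors deposited unstranded read counts per gene.

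The 85 members and the companion lists were chosen with earlier results of these data known. UMIs were summed per cluster and library. Shares are members' UMIs over all UMIs, with exact 95% intervals that cover counting error only. Age and day were fitted on the 4 sums per cluster with edgeR 4.0.16 (R 4.3.3, quasi-likelihood, TMM, genes with at least 10 counts in 2 libraries, Benjamini-Hochberg over all genes), and DESeq2 1.42.0 was an alternative. With no replicate pools, the spread rests on 1 residual degree of freedom and on values borrowed from other genes. The fit was tested on simulated data with 200 changed genes, a fixed spread for all genes and no effect of day. Departures used a pseudocount of 1 CPM. Named genes were the 10 highest by CPM, the 10 with the largest spread of departure among those with at least 10 CPM, the 5 highest and 5 lowest age ratios of 1 sign at both days in clusters 2, 8 and 10 (at least 100 UMIs), all relatives, and up to 4 genes per companion list. Reads shared by near-identical copies and pseudogenes make values of single members uncertain. Start windows are from RefSeq (GRCm38.p6) and coding sequences from GENCODE (GRCm38). For 1 member, single values are not reported here.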

Additional observations from a re-analysis of the deposited data

Results flagged for a closer look

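The age ratio of the ribosomal protein share had opposite signs at day 6 and day 10 in each of the 3 clusters followed in detail. The log2 age ratio (share in middle-aged over share in young cells) at day 10 minus that at day 6 was -0.10 in T cell cluster 2, -0.28 in microglia-like cluster 10 and 0.061 in cluster 8. With 1 library per age and day, the difference was not tested. In cluster 8 the signs depended on the processing: as a mean over cells the ratio was -0.012 at both days, and without cells that carried UMIs of another lineage it was 0.015 at day 6 and -0.034 at day 10.

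The 4 symbols with the suffix -ps, which were not counted as members, held 20523 UMIs, of which Rpl9-ps6 had 10109, Rpl10-ps3 5876, Rpl36a-ps1 4457 and Rpl9-ps1 81.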

How the results depend on the processing

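The count of 0 members called for age held in clusters 2, 8 and 10 under each alternative run. The alternatives for day were chosen after seeing the data. For day, cluster 2 gave 2 calls with RLE size factors, 3 without a count filter, 9 without age in the model and 0 to 22 with 1 library left out. Cluster 10 gave 1 call each with RLE size factors, without a count filter and without cells carrying UMIs of another lineage, and 0 to 75 with 1 library left out. Cluster 8 gave 54 to 66 with 1 library left out, but 1 with DESeq2. A left-out library leaves a group empty and age was then dropped from the model. The log2 age ratio of the share in cluster 2 at day 6 was 0.028 without mitochondrial transcripts in the total, 0.010 as a mean over cells and 0.0095 without cells of another lineage, and at day 10 the last 2 gave -0.079 and -0.084. In cluster 10 it was 0.26 without mitochondrial transcripts and 0.27 as a mean over cells at day 6, and -0.016 as a mean over cells and -0.011 without cells of another lineage at day 10. In cluster 8 at day 6 it was -0.012 as a mean over cells and turned to 0.015 without cells of another lineage, and at day 10 it was 0.023 in cells with at least 2000 UMIs and turned to -0.012 as a mean over cells and to -0.034 without cells of another lineage. The cause was not tested. As a median over cells, the share was 24.97% in cluster 9 and 6.04% in cluster 12. With a pseudocount of 5 CPM the departure of Rpl3l in cluster 3 was 3.42 and that of Rpl39l in cluster 10 was 1.02. No paired analysis was possible because each age and day had 1 library and the groups share no replicate that pairs them.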
